A study of Mus musculus with 10 samples.

Results

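The Hox genes are described here as markers of position along the aorta. The members were all genes whose probe sets carry a single platform symbol of the form Hox, cluster letter a to d, and paralog number. This gave 36 genes out of 22180 genes with a single symbol, 9 in the Hoxa cluster on chromosome 6, 10 in Hoxb on chromosome 11, 9 in Hoxc on chromosome 15 and 8 in Hoxd on chromosome 2. Each gene was represented by its probe set with the highest mean over the 10 arrays, a choice that mattered only for Hoxb5. Hoxa11 and Hoxd4 appear only on probe sets that list several genes and were not analysed here.

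The study set 5 aortas of ApoE/IL-17 double knockout mice against 5 aortas of ApoE knockout mice. All mice were male, on a C57BL/6 background, and 11 weeks old, and all had eaten a high fat diet for 3 weeks from the age of 8 weeks. Both groups lack apolipoprotein E, which clears lipoprotein remnants from blood, so neither is a normal aorta. The double knockout mice came from a cross of IL-17-/- mice into ApoE-/- mice and additionally lack IL-17, a cytokine of T cells. The labels call the 5 samples of a group biological replicates, and they do not name the aortic segment taken or say how fat, heart tissue and lymph nodes were trimmed away. The notes given with the ApoE knockout samples speak of other animals, wild-type and caspase-1 deficient, and no batch or scan date is given. If the groups were run separately, batch and genotype cannot be told apart.

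Hox genes encode homeodomain transcription factors that give embryonic cells their address on the head to tail axis. Within a cluster, genes with low paralog numbers are used from the hindbrain downward, and genes with higher numbers start progressively nearer the tail. Adult smooth muscle cells, fibroblasts and adipocytes keep much of this pattern. In mouse, the wall of the aortic arch comes largely from the neural crest and uses few Hox genes, while the descending aorta is built from trunk mesoderm and uses more of the central and posterior ones. Hox proteins bind DNA with the cofactors Pbx and Meis. Cdx factors and retinoic acid switch the clusters on, and Polycomb proteins keep them silent.

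The values are log2 expression values of Affymetrix Mouse Gene 2.0 ST arrays, as deposited. Array medians over all probe sets lay between 5.95 and 6.03 in the double knockout, above the 5.76 to 5.80 of the ApoE knockout, whereas upper quartiles were 7.63 ± 0.03 in the double knockout and 7.59 ± 0.02 in the ApoE knockout (SD, n = 5 each). Dim genes therefore tended to be higher in the double knockout. Among 1428 olfactory, vomeronasal and taste receptor genes, genes of the sense organs, 425 were called higher and 12 lower, and their median change was 0.29 on the log2 scale. The 95th percentile of their mean levels, 5.80, is called the receptor level below. A Hox gene under it in both groups may carry little signal of its own. Over all genes the median log2 change was 0.098, and after quantile normalization, which forces all arrays to the same distribution, it was -0.018.

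The promoters of 4 genes are shown first because 3 genes of the Hoxa cluster, Hoxa5, Hoxa7 and Hoxa9, had lower values in every double knockout aorta, and Hoxd3 had higher values in every one. Each sequence runs 5′ to 3′ on the gene's strand, 300 bases around the annotated start of the gene, most of them before it, and comes from RefSeq, build GRCm38.p6. Capitals mark TTTAT, the core letters of a Cdx site, found on either strand. The other motif searched, TGATTNAT, is a common joint site of Hox and Pbx and was found in none of the 4. Hoxa5, Hoxa7 and Hoxa9 lie on the minus strand at chr6:52204538-52204837, chr6:52218524-52218823 and chr6:52227321-52227620. Hoxd3 lies on the plus strand at chr2:74711743-74712042.
Hoxa5: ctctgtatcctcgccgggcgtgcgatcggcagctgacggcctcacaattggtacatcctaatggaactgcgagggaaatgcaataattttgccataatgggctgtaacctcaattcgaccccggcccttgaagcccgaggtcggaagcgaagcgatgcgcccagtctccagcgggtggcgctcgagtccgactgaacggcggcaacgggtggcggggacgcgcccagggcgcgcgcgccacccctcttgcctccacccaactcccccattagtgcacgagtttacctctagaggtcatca
Hoxa7: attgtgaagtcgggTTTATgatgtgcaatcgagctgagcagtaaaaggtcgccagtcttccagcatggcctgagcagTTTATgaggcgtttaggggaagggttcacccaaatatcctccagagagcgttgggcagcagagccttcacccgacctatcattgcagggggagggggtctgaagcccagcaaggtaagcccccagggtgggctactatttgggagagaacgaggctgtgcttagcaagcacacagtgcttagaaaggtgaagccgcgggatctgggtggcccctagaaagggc
Hoxa9: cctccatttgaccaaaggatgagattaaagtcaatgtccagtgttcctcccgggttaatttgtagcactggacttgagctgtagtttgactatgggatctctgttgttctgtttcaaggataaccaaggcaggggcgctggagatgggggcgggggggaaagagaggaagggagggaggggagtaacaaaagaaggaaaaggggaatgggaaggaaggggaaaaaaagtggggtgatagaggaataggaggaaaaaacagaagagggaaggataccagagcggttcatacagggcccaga
Hoxd3: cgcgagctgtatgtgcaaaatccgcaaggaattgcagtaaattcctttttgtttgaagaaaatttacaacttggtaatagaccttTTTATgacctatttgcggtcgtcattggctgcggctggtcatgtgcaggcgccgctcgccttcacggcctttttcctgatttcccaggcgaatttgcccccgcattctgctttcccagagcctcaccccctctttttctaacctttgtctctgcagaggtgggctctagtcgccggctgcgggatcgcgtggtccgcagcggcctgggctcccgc
TTTAT occurred 2 times in the Hoxa7 promoter, once in that of Hoxd3, and not in the windows of Hoxa5 and Hoxa9. It is a short motif, present in 40.01% of all 32851 promoters in the table and in 8 of the 22 promoters of Hox members. TGATTNAT was present in 3.22% of all promoters and in 2 of the 22. The 22 promoters belong to 20 members, since some genes have more than a single start. They were rich in the CpG dinucleotide, with a median of 17 against 7 over all promoters. Among the promoters shown, Hoxa5 held 29 CpG and Hoxa9 held 4, so the genes that fell together did not share this feature. A match describes letters only, and both motifs were counted on both strands with overlaps allowed.

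The central Hox genes, paralogs 4 to 8, fell more often than they rose in the double knockout aortas. Of all 36 members, 9 were lower, 8 higher and 19 not called by limma at an adjusted p of 0.05 over all genes. The 25% of members that were lower compare with 7.53% of all genes, while the 22.2% that were higher compare with 22.8% of all genes. By class, 7 of 14 central genes were lower and 1 higher, 1 of 7 anterior genes (paralogs 1 to 3) was lower and 1 higher, and 1 of 15 posterior genes (paralogs 9 to 13) was lower and 6 higher. The median log2 change was -0.26 for central, 0.074 for anterior and 0.21 for posterior genes, beside 0.098 for all genes. After quantile normalization the same 9 genes were lower, joined by Hoxb2 and Hoxc5, where 11.2% of all genes were lower. Hoxd3 was then the single member still higher, where 8.94% of all genes were higher. The number lower went down to 5 without double knockout replicate 3, and the number higher to 5 without ApoE knockout replicate 3. Whether fewer cells of a type or less RNA per cell lies behind a lower value cannot be told apart in whole tissue.

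**Figure D1:**
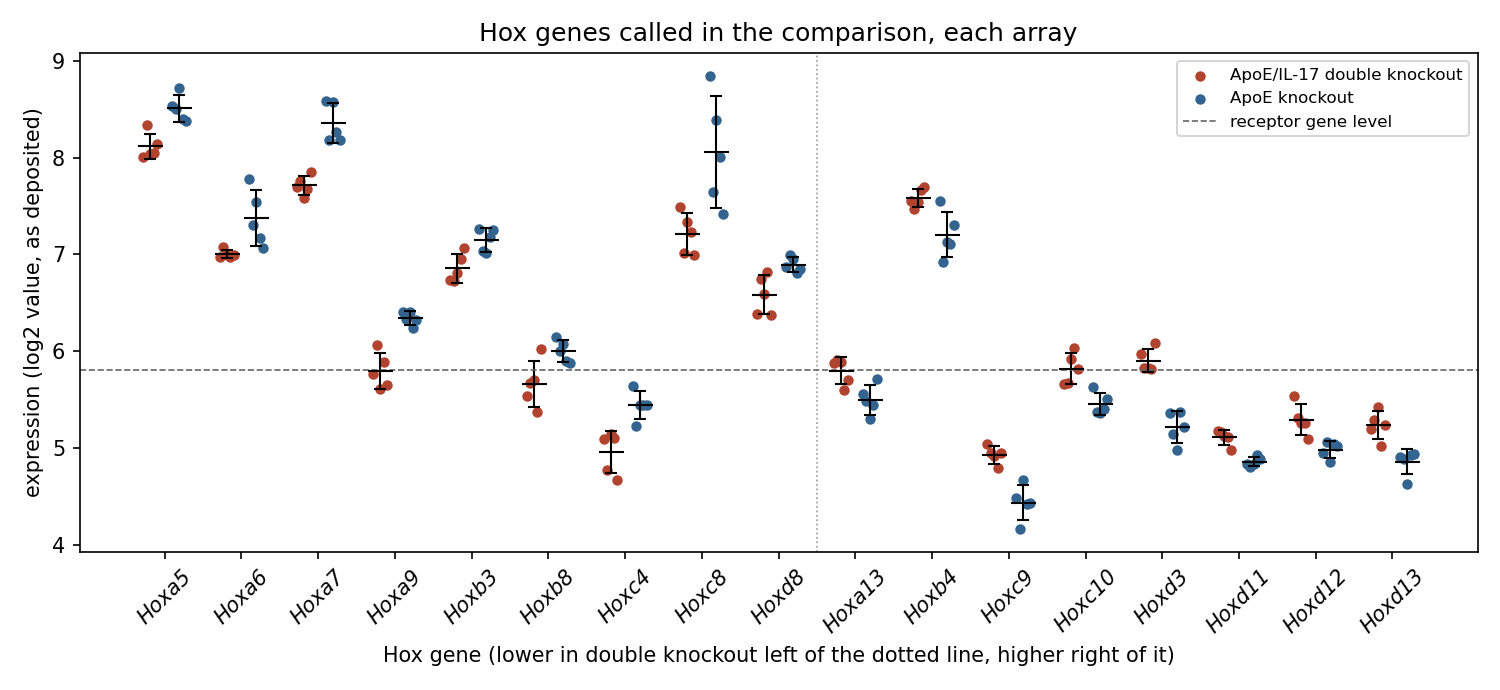
Log2 values of the 17 called Hox genes in each of 10 aortas, double knockout (red) left of ApoE knockout (blue) for each gene, with the mean and SD as bars and the receptor level of 5.80 as a dashed line. Genes lower in the double knockout stand left of the dotted line, and of the 8 higher genes right of it only Hoxb4 has both group means above the dashed line.

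The level of a gene on the array divided the calls. Of the 17 members with both group means at or above the receptor level, 6 were lower (Hoxa5, Hoxa6, Hoxa7, Hoxb3, Hoxc8 and Hoxd8) and 1 was higher (Hoxb4). Among all genes that bright, 10.8% were lower and 12.8% higher. Another 14 members had both means below the receptor level, of which 5 were higher and 1, Hoxc4, was lower. In the same range of all genes 34.6% were higher. Among the 11 central genes above the level, 5 were lower and 1 higher, with a median of -0.025. The remaining 5 members crossed the level, with Hoxa9 and Hoxb8 lower and Hoxc10 and Hoxd3 higher. The values of a member near or under the receptor level may understate its change or hold the general rise of dim genes. The median log2 change of all genes with both means below the level was 0.25.

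In the Hoxa cluster, 4 consecutive measured genes, Hoxa5, Hoxa6, Hoxa7 and Hoxa9, were lower. Hoxa7, a central gene active in the thoracic region of the embryo, had log2 values of 7.70, 7.75, 7.58, 7.68 and 7.85 in the double knockout aortas, against 8.58, 8.18, 8.57, 8.26 and 8.18 in the ApoE knockout aortas. Every double knockout aorta lay below every ApoE knockout aorta, and ApoE knockout replicates 1 and 3 were the highest. The gene was 1.56-fold lower (log2 change -0.64, SE 0.10, n = 5 per group, limma adjusted p = 0.0013). Groups that did not overlap in this direction were found for 4.80% of all genes and for 4 members, namely Hoxa5, Hoxa7, Hoxa9 and Hoxc4.

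Hoxa5, a regulator of lung and neck vertebra formation in mouse, had values of 8.01, 8.33, 8.04, 8.05 and 8.15 in the double knockout and 8.54, 8.51, 8.72, 8.40 and 8.38 in the ApoE knockout. The nearest pair of aortas, double knockout replicate 2 and ApoE knockout replicate 5, were 8.33 and 8.38, and the groups did not overlap. Hoxa5 was 1.31-fold lower (log2 change -0.39, SE 0.09, n = 5 per group, limma adjusted p = 0.0081). Hoxa9, the most anterior posterior-class gene of its cluster and a regulator of blood stem cells, had values of 5.76, 6.07, 5.61, 5.89 and 5.65 in the double knockout, against 6.41, 6.34, 6.41, 6.24 and 6.33 in the ApoE knockout. The 5 ApoE knockout aortas lay close together and all above the double knockout, in which replicate 2 was the highest. The change was -0.55 (SE 0.09, adjusted p = 0.0018, a 1.46-fold lower value), and the double knockout mean of 5.80 lies just under the receptor level. The changes of Hoxa5, Hoxa7 and Hoxa9 passed the test without any single array, with highest adjusted p-values of 0.021, 0.0042 and 0.0060.

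Hoxa6, a gene of the thoracic region, differed in its spread as well as its mean. Its values were 6.98, 7.08, 6.99, 6.97 and 7.00 in the double knockout, against 7.78, 7.30, 7.54, 7.17 and 7.07 in the ApoE knockout. The double knockout aortas were tightly grouped, and only double knockout replicate 2 overlapped with ApoE knockout replicate 5. The change of -0.37 (SE 0.12, n = 5 per group, limma adjusted p = 0.039) was lost without double knockout replicate 1, 3, 4 or 5 or ApoE knockout replicate 1, 2 or 3, with adjusted p up to 0.091 (without ApoE knockout replicate 3). The remaining Hoxa genes did not share this shift. Hoxa2, which patterns the pharyngeal arches and hindbrain, differed by 0.015 (95% interval -0.20 to 0.23). Hoxa3, needed for the thymus and the carotid arteries, differed by 0.20 (-0.06 to 0.45), and Hoxa4, a gene of the neck vertebrae, by 0.14 (-0.13 to 0.41).

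Hoxc8 had the largest change of the 36 members. This gene shapes the thoracic skeleton and, in mouse, restrains the brown fat program in white fat precursors. Its values were 7.49, 7.01, 7.34, 7.23 and 6.99 in the double knockout, against 8.85, 7.64, 8.38, 8.00 and 7.42 in the ApoE knockout. ApoE knockout replicate 5 lay below double knockout replicate 1, so the groups overlapped, and the ApoE knockout aortas spread over more than 1 log2 unit. The gene was 1.80-fold lower (log2 change -0.85, SE 0.23, n = 5 per group, limma adjusted p = 0.020), a call kept without each array in turn (adjusted p up to 0.049). Within the ApoE knockout, Hoxc8 ordered the 5 aortas exactly as the mean level of white adipocyte markers did, and also as that of brown adipocyte markers. Within the double knockout it matched neither order. The white and brown markers ordered the ApoE knockout aortas alike, so this counts as a single match. Exact order was also checked for Hoxa5, Hoxa6, Hoxa7, Hoxa9 and Hoxc6, and against cardiac muscle and lymphocyte markers. No other match was found.

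Adipocyte markers differed between aortas within each group. The mean of 9 white adipocyte markers ran from 8.59 to 9.67 in the double knockout and from 8.79 to 10.35 in the ApoE knockout, with 0 of 9 called by limma and 1 lower at an unadjusted p of 0.05. The mean of 10 brown adipocyte markers ran from 8.50 to 9.54 in the double knockout and from 8.21 to 10.12 in the ApoE knockout, with 1 of 10 (Dio2) higher. Adiponectin (Adipoq) and Ucp1, the uncoupling protein of brown fat, lay well above the receptor level in all aortas. With the white adipocyte level as a covariate in the fit, Hoxc8 was still lower (-0.56, adjusted p = 0.013), as were Hoxa5 (-0.37, 0.018), Hoxa7 (-0.59, 0.0035), Hoxa9 (-0.54, 0.0048), Hoxb3 (-0.33, 0.029) and Hoxc4 (-0.40, 0.018). Hoxa6 (-0.26, 0.083), Hoxb8 (-0.33, 0.072) and Hoxd8 (-0.31, 0.051) were no longer called, and neither was Hoxa13 (0.30, 0.052), which had been higher. The Hoxc8 change without this covariate was -0.85. The fit uses the same slope for both groups, whereas Hoxc8 matched the order of the fat markers only in the ApoE knockout. It therefore cannot set the fat level aside, and the part of fat tissue in the Hox differences was otherwise not tested.

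**Figure D2:**
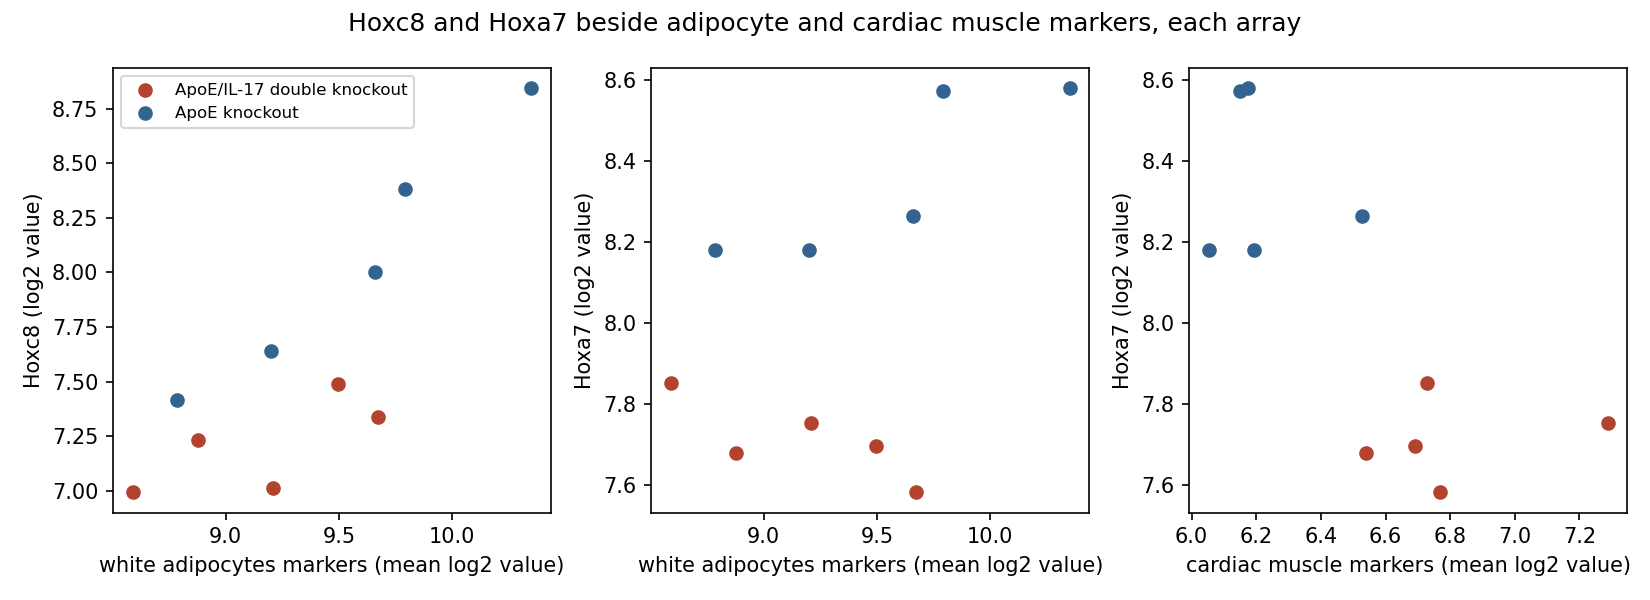
Log2 value of Hoxc8 (left) and Hoxa7 (middle) against the mean log2 value of white adipocyte markers, and of Hoxa7 (right) against that of cardiac muscle markers, 1 point per aorta, double knockout in red and ApoE knockout in blue. Hoxc8 climbs with the fat markers through the 5 ApoE knockout aortas. Hoxa7 is lower in every double knockout aorta than in any ApoE knockout aorta. Its highest values are in ApoE knockout replicates 1 and 3, whose fat marker levels (10.35 and 9.79) exceed those of all double knockout aortas (up to 9.67). The cardiac markers separate the groups too.

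Another 4 genes outside the Hoxa cluster were lower besides Hoxc8. Hoxc4, a gene of the neck and forelimb region, had 5.10, 4.78, 5.15, 5.10 and 4.67 in the double knockout, against 5.65, 5.23, 5.45, 5.45 and 5.45 in the ApoE knockout. The groups did not overlap, and all 10 values lay below the receptor level. The change was -0.48 (SE 0.11, n = 5 per group, limma adjusted p = 0.0089). It ran opposite to the general rise of dim genes, and it was -0.73 after quantile normalization. That setting lowered dim genes in general: the median change of all genes below the level went from 0.25 to -0.0015. The larger size is therefore no added support. ApoE knockout replicates 3, 4 and 5 hold an identical Hoxc4 value, so the spread of that group may be understated. Hoxd8, which acts in the trunk and in lymphatic endothelium, averaged 6.58 ± 0.20 in the double knockout and 6.89 ± 0.08 in the ApoE knockout (SD, n = 5 each), with only double knockout replicate 4 reaching into the other group. Its change of -0.31 (SE 0.10, adjusted p = 0.032) was lost without double knockout replicate 1, 3 or 5 or ApoE knockout replicate 2 or 3. Hoxb8, used in myeloid progenitors, averaged 5.66 ± 0.24 in the double knockout and 6.00 ± 0.11 in the ApoE knockout (-0.34, SE 0.11, adjusted p = 0.040), a call lost without any array other than replicate 5 of either group. The anterior gene Hoxb3 averaged 6.86 ± 0.15 in the double knockout and 7.15 ± 0.12 in the ApoE knockout (-0.29, SE 0.09, adjusted p = 0.030), lost without double knockout replicate 1, 2 or 3 or ApoE knockout replicate 1, 4 or 5. The highest adjusted p-values in these cases were 0.070 for Hoxd8 (without ApoE knockout replicate 2), 0.087 for Hoxb8 (without double knockout replicate 4) and 0.064 for Hoxb3 (without double knockout replicate 1).

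Hoxb4 went the other way from its central neighbors. The gene is known for expanding blood stem cells. It had values of 7.55, 7.47, 7.54, 7.66 and 7.69 in the double knockout, against 7.55, 6.93, 7.13, 7.11 and 7.31 in the ApoE knockout. The ApoE knockout aorta at the double knockout level was replicate 1, and the other 4 lay below all double knockout aortas. The gene was 1.30-fold higher (log2 change 0.38, SE 0.11, n = 5 per group, limma adjusted p = 0.022). The call was lost without double knockout replicate 4 (0.051), ApoE knockout replicate 3 (0.053) or ApoE knockout replicate 4 (0.051), and after quantile normalization (0.33, 0.052). The remaining 6 central genes were not called. Their changes lay between -0.21 (Hoxc5) and 0.17 (Hoxb7), with Hoxa4, Hoxb5, Hoxb6 and Hoxc6 between. Hoxb5 has another single-symbol probe set, which was 6.93 ± 0.17 in the double knockout and 6.64 ± 0.08 in the ApoE knockout (0.29, SE 0.09, adjusted p = 0.046 over all probe sets), while the one used differed by 0.029 (adjusted p = 0.86). The 2 probe sets of Hoxb5 thus disagree on the call.

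Hoxd3 had the smallest adjusted p of the 36 members. In mouse Hoxd3 shapes the upper neck, and in endothelial cells it promotes integrin expression and sprouting. Its values were 5.98, 5.82, 5.83, 5.81 and 6.08 in the double knockout, against 5.36, 5.15, 4.99, 5.37 and 5.22 in the ApoE knockout. The groups did not overlap, with the double knockout at or just above the receptor level and the ApoE knockout below it. The gene was 1.61-fold higher (log2 change 0.69, SE 0.09, n = 5 per group, limma adjusted p = 0.00056) and was still 0.45 higher after quantile normalization (adjusted p = 0.0064). The call was kept without each array in turn. The other 5 anterior genes, Hoxa2, Hoxa3, Hoxb1, Hoxb2 and Hoxd1, were not called. Hoxb2, a hindbrain gene, was -0.18 (SE 0.08, adjusted p = 0.092) as deposited and -0.38 (adjusted p = 0.0042) after quantile normalization. Hoxd1, at 0.31 (SE 0.16, adjusted p = 0.16), became significant only without ApoE knockout replicate 1 (adjusted p = 0.035).

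The 6 higher posterior genes all had a mean below the receptor level in at least the ApoE knockout. Hoxc9, which sets thoracic motor neuron identity, had 5.04, 4.95, 4.92, 4.79 and 4.95 in the double knockout and 4.49, 4.17, 4.68, 4.42 and 4.43 in the ApoE knockout. Hoxc10, a gene of the lumbar region, had 5.67, 5.68, 5.92, 6.03 and 5.82 in the double knockout and 5.64, 5.38, 5.37, 5.40 and 5.51 in the ApoE knockout. Neither gene overlapped between groups, though for Hoxc10 the lowest double knockout aorta and ApoE knockout replicate 1 nearly met. Log2 changes were 0.49 for Hoxc9 (SE 0.09, adjusted p = 0.0032) and 0.36 for Hoxc10 (SE 0.09, adjusted p = 0.012). Hoxd11, Hoxd12 and Hoxd13, which pattern limbs and the genital tract, rose by 0.25, 0.31 and 0.38 (SE 0.06, 0.09 and 0.09, adjusted p = 0.012, 0.021 and 0.010). None of these 3 overlapped between groups, and all their values lay below the receptor level. Hoxd13 ran from 5.03 to 5.43 in the double knockout and from 4.63 to 4.94 in the ApoE knockout. Hoxa13, a gene of the hindgut, digits and umbilical arteries, rose by 0.30 (SE 0.09, adjusted p = 0.033), with overlap between groups. The Hoxa13 values ran from 5.60 to 5.91 in the double knockout and from 5.30 to 5.72 in the ApoE knockout. Higher values without overlap were found for 6 members, namely Hoxd3 and all of these posterior genes except Hoxa13, and for 15.6% of all genes.

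After quantile normalization none of these 6 posterior genes remained called. The changes were then 0.22 for Hoxc9, 0.14 for Hoxc10, 0.070 for Hoxa13, 0.047 for Hoxd12, 0.11 for Hoxd13 and -0.013 for Hoxd11, a turn of sign. The Hoxa13 call was lost without double knockout replicate 1, 2 or 3 or ApoE knockout replicate 2, 3 or 4 (adjusted p up to 0.080, without ApoE knockout replicate 3), and that of Hoxd12 without ApoE knockout replicate 3 (0.054). Posterior genes at or above the receptor level in both groups were Hoxb9 and Hoxd10. Hoxb9, a thoracic gene, was 7.62, 7.33, 6.72, 6.85 and 7.18 in the double knockout, against 7.33, 7.57, 7.54, 7.61 and 7.43 in the ApoE knockout. Double knockout replicate 1 was the highest of all 10 aortas and replicates 3 and 4 the lowest, so the groups overlapped. The change was -0.35 (SE 0.15, adjusted p = 0.098), and it passed the test without double knockout replicate 1 (-0.47, 0.021). Hoxd10, a limb and spinal cord gene, was 0.30 higher (SE 0.11, adjusted p = 0.064) and passed the test without double knockout replicate 4 (0.36, 0.043). The other 6 posterior genes (Hoxa10, Hoxb13, Hoxc11, Hoxc12, Hoxc13 and Hoxd9) were not called, with changes from -0.065 to 0.21.

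**Figure D3:**
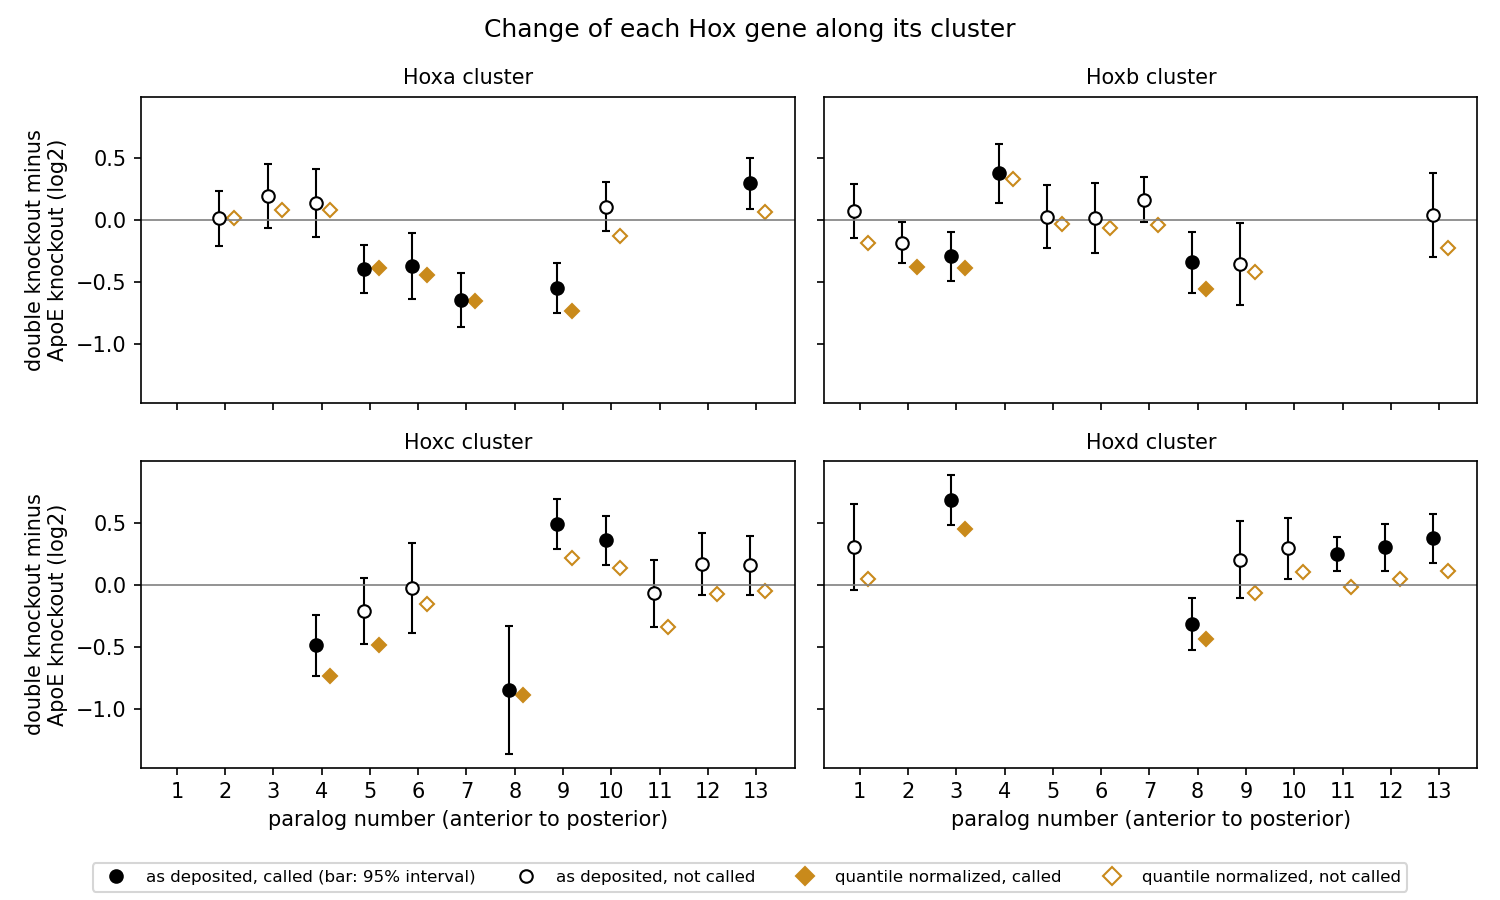
Log2 change, double knockout minus ApoE knockout, of each measured Hox gene along its cluster from anterior to posterior paralogs, as deposited (black circles, bars for the 95% interval) and after quantile normalization (orange diamonds), filled where called. Hoxa5, Hoxa6 and Hoxa7 lie below 0 under both, while the posterior increases of Hoxc and Hoxd shrink toward 0 after quantile normalization.

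The position of the sampled segment was described by the mean level of each class in an array. Levels of different probe sets are not comparable, so only differences between groups are read. The central class averaged 6.69 ± 0.015 in the double knockout and 6.90 ± 0.19 in the ApoE knockout (SD, n = 5 each). The double knockout aortas ran from 6.67 to 6.71 and the ApoE knockout aortas from 6.75 to 7.16, without overlap. ApoE knockout replicates 1 (7.16) and 3 (7.04) stood above the other 3, which lay close together. The anterior class averaged 6.31 ± 0.13 in the double knockout and 6.19 ± 0.10 in the ApoE knockout, with overlap. The posterior class averaged 5.52 ± 0.11 in the double knockout and 5.38 ± 0.05 in the ApoE knockout, also with overlap. All arrays of the double knockout were also higher in their median over all probe sets, which affects the class means.

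Differences between classes within an array cancel only a shift that is the same at all levels. Here the lower quartile of an array was 0.27 higher in the double knockout on average and the upper quartile 0.037 higher, so classes of different brightness were shifted unequally. The central minus anterior level, chosen after the values were seen, was 0.38 ± 0.12 in the double knockout and 0.71 ± 0.16 in the ApoE knockout, a difference of -0.32. It ran from 0.22 to 0.54 in the double knockout and from 0.55 to 0.94 in the ApoE knockout, so the groups touched but did not overlap. The difference shrank to -0.10 when the lowest 40% of genes by mean level were left out. The posterior minus anterior level was -0.78 ± 0.14 in the double knockout and -0.81 ± 0.09 in the ApoE knockout, a difference of 0.025 that is smaller than the spread within either group. It turned to -0.039 after quantile normalization and to -0.10 without genes below the receptor level in both groups. The groups thus differed in the central class without overlap, while no difference in the posterior against the anterior class was detectable with 5 arrays per group. Which segment each aorta sample held was not tested.

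**Figure D4:**
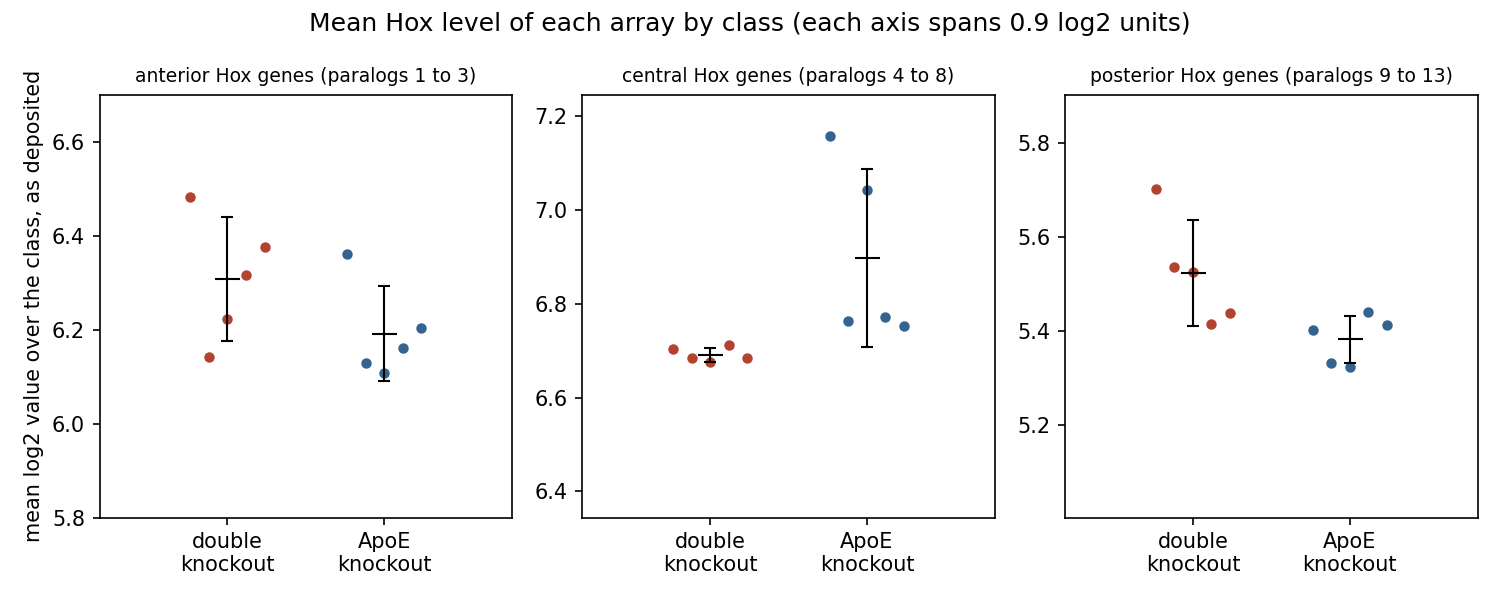
Mean log2 value over the anterior, central and posterior Hox genes in each aorta, double knockout (red) left of ApoE knockout (blue), with the mean and SD as bars. The double knockout aortas lie between 6.67 and 6.71 in the central class, all below the ApoE knockout aortas, while the anterior and posterior classes overlap.

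Other transcription factors with a regional pattern in the vessel and heart also differed. Of 15 factors of the heart outflow tract and its progenitor field, double knockout aortas had 6 at higher and 1 at lower values (median log2 change 0.19). Tbx20, a T-box factor of heart and outflow tract, had 7.61, 7.46, 7.71, 7.76 and 7.88 in the double knockout, against 6.33, 6.14, 6.51, 6.43 and 7.25 in the ApoE knockout. ApoE knockout replicate 5 stood apart from its group and still lay below all double knockout aortas. Tbx20 was 2.23-fold higher (log2 change 1.15, SE 0.18, n = 5 per group, limma adjusted p = 0.0012). Hand2, needed for the outflow tract and arch arteries, had 7.54, 7.16, 7.13, 7.13 and 7.50 in the double knockout, against 6.38, 6.58, 5.79, 6.51 and 6.83 in the ApoE knockout, again without overlap (1.83-fold higher, 0.87, SE 0.17, adjusted p = 0.0044). The cardiac factors Gata4, Gata5 and Nkx2-5 were higher by 0.54, 0.49 and 0.39 (adjusted p = 0.0071, 0.00093 and 0.0079), and Irx5 by 0.30 (0.012). Isl1, the marker of the progenitor field itself, was lower (-0.49, adjusted p = 0.037). After quantile normalization 4 were higher and 1 lower, and Gata4 (0.37, adjusted p = 0.051) and Irx5 (0.14, 0.20) were no longer called.

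Of 16 factors of the neural crest and pharyngeal arches, 6 were higher and 1 lower (median 0.17). Six2, an arch and kidney progenitor factor, averaged 6.70 ± 0.12 in the double knockout and 5.92 ± 0.13 in the ApoE knockout without overlap (0.78, SE 0.09, adjusted p = 0.00020). Eya1, its partner in development, was lower (-0.37, adjusted p = 0.029). The crest gene Pax3 was higher by 0.47 (adjusted p = 0.0021), near the receptor level, and Twist2, a factor of dermal and other mesenchyme, by 0.40 (0.028). Of 20 factors of trunk and caudal mesoderm, 5 were higher and none lower by limma, also none lower at an unadjusted p of 0.05 (median 0.20). They were Tcf21, of epicardium and adventitial fibroblasts (0.79, adjusted p = 0.0012), the somite gene Meox1 (0.53, 0.0097), Nr5a1, of the adrenal gland (0.49, 0.0085), the muscle progenitor gene Pax7 (0.35, 0.041) and Tbx15 (0.30, 0.020). After quantile normalization 2 crest and arch factors were higher and 1 lower, and 1 trunk factor, Tcf21, was higher. Of the genes named here, Twist2 (adjusted p = 0.14), Meox1 (0.052), Nr5a1 (0.10), Pax7 (0.35) and Tbx15 (0.34) were then no longer called. Over all genes 22.8% were higher and 7.53% lower as deposited, and 8.94% and 11.2% after quantile normalization. The share of trunk factors that were higher lies near these under both settings. That of the crest and arch factors lies near them after quantile normalization.

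Cardiac muscle genes also differed between the groups. Of 10 cardiac muscle markers 6 were higher (Ryr2 0.83, Actc1 0.79, Nppb 0.64, Myl4 0.64, Tnnt2 0.62 and Mybpc3 0.49), and their mean ran from 6.54 to 7.29 in the double knockout and from 6.05 to 6.53 in the ApoE knockout, narrowly without overlap. Over all genes 22.8% were higher. Mybpc3 lay below the receptor level in both groups, and the ApoE knockout means of Nppb (5.16) and Actc1 (5.70) were below it too. After quantile normalization Ryr2, Tnnt2 and Nppb were still called, and Actc1 (adjusted p = 0.10), Myl4 (0.053) and Mybpc3 (0.16) were not. Under that setting 8.94% of all genes were higher. Within the groups the cardiac and outflow lists did not share an order, since double knockout replicate 2 had the highest cardiac mean of its group (7.29) and the lowest outflow factor mean (6.93). The atrial marker Myl7 had 5.81, 8.38, 6.55, 6.42 and 6.99 in the double knockout and 6.20, 5.63, 5.99, 7.12 and 5.11 in the ApoE knockout (0.82, SE 0.46, adjusted p = 0.19), and was highest in double knockout replicate 2. With the cardiac level as a covariate, 1 Hox gene was still lower, Hoxa9 (-0.66, adjusted p = 0.036), and 1 still higher, Hoxd3 (0.64, 0.044). Hoxa7 kept its size (-0.65) with an adjusted p of 0.056, and Hoxa5 was -0.51 (0.069). At an unadjusted p of 0.05 there were 6 higher and 3 lower. The share of all genes passing that cut in this fit was not determined, so these counts are not particular to Hox genes. Because the cardiac levels of the groups do not overlap either, this fit cannot tell level and genotype apart well. The part of heart tissue in the Hox differences was otherwise not tested.

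**Figure D5:**
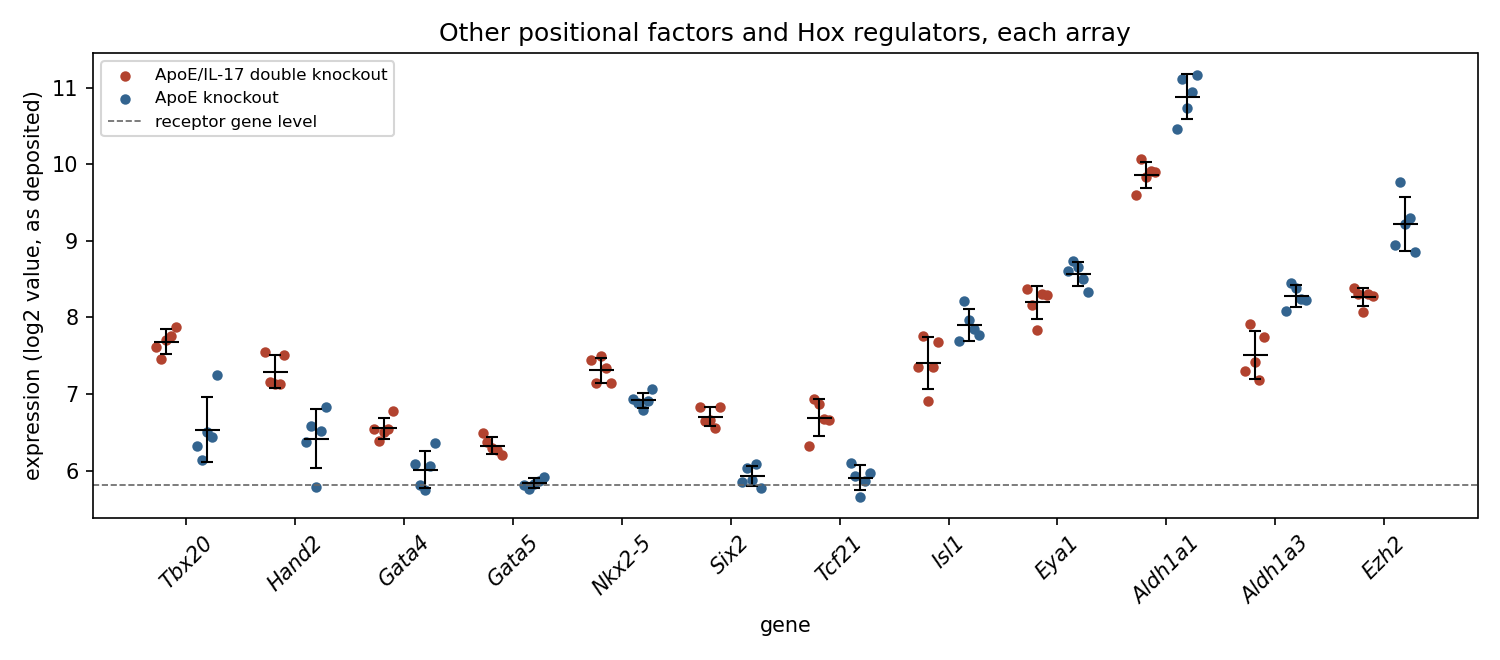
Log2 values of regional transcription factors, retinoic acid enzymes and the Polycomb gene Ezh2 in each aorta, double knockout (red) left of ApoE knockout (blue), with the mean and SD as bars and the receptor level dashed. Tbx20, Hand2 and Six2 are higher in every double knockout aorta than in any ApoE knockout aorta, and Aldh1a1 and Ezh2 are lower in every one.

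Lymphocyte markers separated the groups more widely than any Hox class. All 9 measured markers were lower, and their mean ran from 5.88 to 6.59 in the double knockout and from 6.93 to 7.85 in the ApoE knockout. With this level as a covariate no Hox gene was called by limma, and at an unadjusted p of 0.05 there were 4 higher and 2 lower. Here too the share of all genes passing that cut was not determined. The estimates were -0.49 for Hoxa7, -0.51 for Hoxa9, -0.77 for Hoxc4, 0.72 for Hoxd3 and 0.030 for Hoxb4. The lymphocyte levels of the groups do not overlap, so the limit given for the cardiac level holds here too. Red cell markers were lower as well, 3 of 4. Markers of the vessel wall moved less. Of 10 each, smooth muscle had 3 higher, fibroblasts 4 higher, endothelium 2 lower and macrophages 1 lower. After quantile normalization smooth muscle had 3 higher, fibroblasts 5 higher, endothelium 1 lower and macrophages 1 lower. Under that setting 8.94% of all genes were higher and 11.2% lower. Smooth muscle markers averaged 11.46 ± 0.03 in the double knockout and 11.22 ± 0.19 in the ApoE knockout (SD, n = 5 each), far above the receptor level in both. Cartilage markers had 5 of 10 higher, mesothelium 2 of 10, skeletal muscle 2 of 10, and Schwann cells 1 of 7 higher and 3 lower, where 22.8% of all genes were higher. After quantile normalization 1 cartilage marker was higher, 1 mesothelium marker was higher and 1 lower, no skeletal muscle marker was called by limma (1 higher and 1 lower at an unadjusted p of 0.05), and the Schwann cell counts stayed at 1 and 3. Of 14 kidney and adrenal markers 6 were higher and of 9 thymus and esophagus epithelium markers 3, but 12 and 7 of these markers lay below the receptor level in both groups, and none was called by limma after quantile normalization, where 1 kidney and adrenal marker was higher at an unadjusted p of 0.05.

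Among 38 measured regulators of the clusters, 4 were higher and 9 lower (median log2 change -0.047). The shares over all genes were 22.8% higher and 7.53% lower. After quantile normalization 2 regulators were higher and 10 lower, beside 8.94% and 11.2% of all genes. The largest change among the regulators was that of Aldh1a1. This enzyme, which makes retinoic acid, had 9.60, 10.07, 9.83, 9.92 and 9.90 in the double knockout, against 10.46, 11.12, 10.74, 10.94 and 11.17 in the ApoE knockout. The groups did not overlap, and the log2 change was -1.02 (SE 0.14, n = 5 per group, limma adjusted p = 0.00056; -0.98 after quantile normalization). Aldh1a3, another enzyme of this step, was lower as well (-0.77, adjusted p = 0.0025). Ezh2, a Polycomb methyltransferase that dividing cells also use, had 8.38, 8.31, 8.07, 8.31 and 8.28 in the double knockout, against 8.95, 9.77, 9.22, 9.31 and 8.85 in the ApoE knockout (-0.95, SE 0.15, adjusted p = 0.0014). The Polycomb genes Cbx2 (-0.30, 0.0041) and Cbx7 (-0.41, 0.0046) were lower and Phc3 was higher (0.38, 0.0063). Ctcf, the insulator protein that partitions the clusters, was lower (-0.30, 0.013), as was Men1, a partner of the activating methyltransferase Kmt2a (-0.25, 0.0086). Cdx2, an activator of central and posterior genes, had 6.19, 6.10, 6.11, 6.21 and 5.76 in the double knockout, against 5.35, 5.16, 5.05, 5.33 and 5.37 in the ApoE knockout (0.82, SE 0.10, adjusted p = 0.00036). All 5 ApoE knockout aortas were under the receptor level, as was double knockout replicate 5.

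Of 8 measured Hox cofactors, only Pbx3 was called, higher by 0.30 (SE 0.09, adjusted p = 0.034), and this was lost after quantile normalization (0.25, 0.068). Meis3 was called lower under that setting (-0.25, adjusted p = 0.027), against -0.13 (0.14) as deposited. Meis1 differed by 0.058 (adjusted p = 0.57) and Meis2 by -0.053 (0.55). Noncoding and flanking genes of the clusters were measured for 13 entries, with 1 higher and 1 lower. For this list and the cofactors, the shares over all genes to compare were 22.8% higher and 7.53% lower. Hotair, a noncoding RNA of the posterior Hoxc cluster, was higher by 0.62 (SE 0.10, adjusted p = 0.0013; 0.36, 0.031 after quantile normalization) but lay below the receptor level in all aortas. Smug1, a DNA repair gene beside the Hoxc cluster, was lower (-0.45, adjusted p = 0.0027). The microRNA genes Mir10b, Mir196a-1, Mir196a-2 and Mir615, which lie within the clusters, were not called as deposited and lay below the receptor level. After quantile normalization 1 entry of this list was higher and 3 were lower, Mir196a-1 among them (-0.44, adjusted p = 0.010). Under that setting 8.94% of all genes were higher and 11.2% lower.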

How the data were processed

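RNA of whole tissue from 10 aortas was measured on Affymetrix Mouse Gene 2.0 ST arrays, as the labels state. The deposited values are 1 log2 number per probe set and array. The base was inferred from their range, and how the authors corrected and normalized them is not given in the sources. The submitters' processing notes name limma without a version. Of 41345 probe sets, 23521 carry 1 gene symbol in the platform annotation, 1814 several and 16010 none, and genes were named only from those with 1. All 36 Hox members matched RefSeq by gene ID.

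The highest-mean probe set of each of 22180 genes was fitted with limma 3.58.1 (lmFit, eBayes) in R 4.3.3, group only, two-sided, with Benjamini-Hochberg adjustment over all genes at 0.05. An SE is limma's standard error on the log2 scale. Adjusted p-values are from this fit unless another setting is named. Class levels are described without a test. The 5 arrays per group limit the precision. On simulated data for this comparison with 22180 genes, the code recovered 61% of genes changed by 0.5 and 90% of those changed by 1 on the log2 scale, with 8 false calls. The simulation changed 200 genes, used normal noise and held no shift of dim genes between groups. Its rates therefore need not hold for the deposited values. Members, marker lists and factor lists were chosen with earlier results of these data known. All 36 members are given. Of the other lists, a selection of called genes is named, not strictly in order of p, plus those needed to show a position or tissue. Called genes left out include Cdx4, Tfap2a and Dlx6, which were higher, and Gbx2 and Kdm6b, which were lower. The central minus anterior level, the 3 tissue covariates and the filter at the receptor level were added after the values were seen. The remaining alternatives were leaving out each array, a stricter threshold, other scalings, a filter on dim genes, the mean of all probe sets, array weights, a trended robust prior and the replicate number as a block. Motifs were searched in RefSeq promoters of GRCm38.p6.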

Additional observations from a re-analysis of the deposited data

Results flagged for a closer look

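In 72 groups of 5 values (36 members in both genotypes), 3 aortas stood apart from the other 4 by Dixon's test at the 95% level, where chance gives about 1 in 20. Hoxa6 was 7.08 in double knockout replicate 2, above the 6.97 to 7.00 of the other double knockout aortas, and this small gap is large only beside their narrow spread. Hoxa10 was 5.80 in double knockout replicate 3, above the 5.38 to 5.50 of the others. Hoxd13 was 4.63 in ApoE knockout replicate 3, below the 4.88 to 4.94 of the others, and the Hoxd13 change stayed called without that aorta.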

How the results depend on the processing

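The number of Hox genes called lower (9) stayed within 1.5 times under other scalings, the mean of all probe sets, another prior, array weights and the 2 filters on dim genes. The number called higher (8) did not: it was 1 after quantile normalization, 2 with arrays centred on their median, 1 without the lowest 40% of genes and 3 without genes below the receptor level in both groups, where fewer members were tested. At an adjusted p of 0.01, 2 were higher and 4 lower. With the cardiac level as a covariate 1 was higher and 1 lower, and with the lymphocyte level 0 were higher and 0 lower by limma. At an unadjusted p of 0.05 the lymphocyte fit had 4 higher and 2 lower, and the share of all genes at that cut was not determined. Leaving out 1 array gave 5 to 9 higher and 5 to 8 lower, a posterior minus anterior difference of -0.019 to 0.064 and a central minus anterior difference of -0.36 to -0.26. The posterior minus anterior difference turned sign to -0.039 after quantile normalization, -0.046 without the lowest 40% of genes, -0.10 without genes below the receptor level, -0.019 without double knockout replicate 2 and -0.012 without ApoE knockout replicate 1. The central minus anterior difference moved to -0.10 without the lowest 40% of genes. With the replicate block, 7 were higher and 8 lower, with Hoxa13 and Hoxb8 lost. Same-numbered arrays correlated between -0.13 and 0.26 in their deviations from the group means, across genes. This exceeded the highest correlation with another number for replicates 1 (0.26 against 0.067), 2 (0.20 against 0.14) and 5 (0.14 against 0.096). It did not for replicates 3 (-0.13 against 0.18) and 4 (0.060 against 0.086). Whether the numbers pair the samples is not settled by these values. Among single members that turned sign, only Hoxd11 and Hoxc10 had been called. After quantile normalization these were Hoxa10 (-0.13), Hoxb1 (-0.19), Hoxb5 (-0.028), Hoxb6 (-0.060), Hoxb7 (-0.037), Hoxb13 (-0.22), Hoxc12 (-0.068), Hoxc13 (-0.045), Hoxd9 (-0.065) and the called Hoxd11 (-0.013). With arrays centred on their median they were Hoxa2 (-0.19), Hoxa3 (-0.0071), Hoxa4 (-0.063), Hoxa10 (-0.097), Hoxb1 (-0.13), Hoxb5 (-0.18), Hoxb6 (-0.19), Hoxb7 (-0.037), Hoxb13 (-0.16), Hoxc12 (-0.031) and Hoxc13 (-0.045). Array weights turned Hoxb13 (-0.036). The white adipocyte covariate turned Hoxc6 (0.13), and the cardiac covariate Hoxb2 (0.0012), Hoxb13 (-0.099) and Hoxc6 (0.095). The lymphocyte covariate turned Hoxa10 (-0.027), Hoxb5 (-0.032), Hoxb6 (-0.036), Hoxb9 (0.43), Hoxb13 (-0.15), the called Hoxc10 (-0.035) and Hoxc11 (0.029). Leaving out 1 array turned Hoxa2 (-0.044 to 0.089), Hoxb5 (-0.022 to 0.11), Hoxb6 (-0.072 to 0.099), Hoxb13 (-0.060 to 0.13), Hoxc6 (-0.12 to 0.12) and Hoxc11 (-0.14 to 0.033). The cause of these turns was not tested. Signal limits the posterior class, of which 10 of 15 genes lay below the receptor level in both groups.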
